A study of Sus scrofa with 30 samples.

Results

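Transcripts of 6 genes were followed in pig cerebral cortex through cardiac arrest and resuscitation: DYNC1I2, FBXW7, PABPN1, TTC14, ZFAND5 and CKS2. Every probe set whose only gene symbol was one of these was taken, which gave 15 of the 23999 non-control probe sets on the array. All 15 lay above the filter on low values and belong to the 16799 probe sets tested. The genes were chosen by their low values late after resuscitation in these same arrays. DYNC1I2, FBXW7, PABPN1 and TTC14 were selected on the 180 min saline group against the 0 min control group. For ZFAND5 and CKS2 the contrast used was not given, and the difference between 180 min and earlier reperfusion was treated as the one that chose them. Comparisons with those groups are therefore given as descriptions without p-values, and tests rest on other arrays. DYNC1I2 has 2 probe sets, FBXW7 has 5, PABPN1 has 3 and ZFAND5 has 3, while TTC14 and CKS2 have 1 each.

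The 6 proteins have separate roles. DYNC1I2 is an intermediate chain of cytoplasmic dynein, the motor that carries cargo along microtubules toward the cell body, and the chain links the motor to dynactin. FBXW7 is the substrate-binding subunit of an SCF ubiquitin ligase that marks proteins such as MYC, JUN and cyclin E for degradation. PABPN1 is a nuclear poly(A)-binding protein that takes part in building the poly(A) tail and in the choice of polyadenylation site. TTC14 is a tetratricopeptide repeat protein whose role is less well described. ZFAND5 is an A20-type and AN1-type zinc finger protein that binds ubiquitin, and CKS2 is a small subunit that binds cyclin-dependent kinases. Many genes yield transcripts with different 3' ends, and a 3' expression array may hold separate probe sets for such forms.

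The animals were farm pigs of both sexes, 12 to 14 weeks old, under pentobarbital anaesthesia, including those of the control group. Arrest was ventricular fibrillation induced by current. In the control group (CA0) the brain was taken at once, at 0 min of arrest. A further 3 groups had 5, 20 or 30 min of arrest without resuscitation (CA5, CA20, CA30) and are called untreated arrest here. The remaining 6 groups were resuscitated for 8 min after an arrest of 12 min and their cortex was removed 30, 60 or 180 min after spontaneous circulation had returned. These animals received either saline alone (groups SAL30, SAL60 and SAL180) or saline and methylene blue (groups MB30, MB60 and MB180). Saline was infused at 55 mL/kg/h and the dye, which inhibits nitric oxide synthase and guanylate cyclase, at 7.5 mg/kg/h. The infusion started 1 min into resuscitation and stopped 50 min after circulation returned, so that tissue at 60 and 180 min was taken after its end. Each of the 10 groups had 3 arrays, biological replicates per the labels, 30 in all. A resuscitated group without infusion, or one given methylene blue without saline, was not analysed here, so reperfusion and the saline infusion cannot be told apart.

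The 30 arrays carried high summed signals for neuron, astrocyte and oligodendrocyte markers, as cortex should, whereas all 6 leukocyte markers lay below the filter in level. The log2 ratio of 3' to 5' probe sets of control transcripts, a measure of RNA integrity that rises as RNA is degraded, ran from 1.67 to 1.92 in CA0, from 1.07 to 2.71 in untreated arrest, from 0.985 to 2.60 in the saline groups and from 0.713 to 1.35 in the methylene blue groups. Median intensity was 97.6 to 108.5 arbitrary units on the 9 methylene blue arrays and 87.1 to 104.7 on the other 21. CA20 replicate 2 stood apart in choroid plexus markers: the summed intensity of the 3 choroid plexus markers on the array was 12210 there, 418 and 313 on the other CA20 arrays, and at most 366 elsewhere. CA20 is part of untreated arrest, and values without that array are given with those comparisons. SAL30 replicate 1 was the array least like the others (median correlation 0.933 with them, against at most 0.970 for any array). These are bulk tissue values, in which fewer cells of a type and less RNA per cell cannot be told apart.

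For DYNC1I2 the 2 probe sets gave different pictures. Probe set Ssc.23632.1.S1_at read 180.1, 243 and 272 in CA0, 168, 201 and 247 in CA5, 275, 126 and 139 in CA20, and 222, 223 and 226 in CA30. After reperfusion with saline it read 81.2, 138 and 144 at 30 min, 83.3, 69.1 and 91.3 at 60 min, then 36.3, 47.2 and 38.9 at 180 min. With methylene blue it read 144, 88.5 and 91.1 at 30 min, 84.0, 97.9 and 76.9 at 60 min, then 56.1, 68.1 and 37.9 at 180 min. The SAL60, SAL180, MB60 and MB180 arrays all lay below every array of the 4 groups without reperfusion, and the lowest CA values, 126 and 139, came from the CA20 arrays with the highest 3' to 5' ratios, 2.21 and 2.71, of which replicate 2 is the array with the choroid plexus signal.

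The second DYNC1I2 probe set, Ssc.1201.1.S1_at, held between 1361 and 2110 on all 30 arrays with a median of 1698. Its SAL180 values of 1402, 1561 and 1486 lay inside the range of the untreated arrest arrays, 1361 to 1953. On the log2(intensity + 16) scale, used for all differences here, SAL180 minus CA0 was -2.11 ± 0.24 (SE of the fit, n = 3 per group) on Ssc.23632.1.S1_at and -0.10 ± 0.12 on Ssc.1201.1.S1_at. With 1 or 64 added in place of 16, the difference of Ssc.23632.1.S1_at was -2.465 or -1.485. Against SAL30 the SAL180 difference of Ssc.23632.1.S1_at was -1.24 ± 0.24, and MB180 minus MB30 was -0.82 ± 0.24.

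FBXW7 showed the same kind of split, with 1 low probe set beside 4 others. Probe set Ssc.2250.1.A1_at read 208, 273 and 232 in CA0, 197, 221 and 193 in CA5, 181, 132 and 132 in CA20, and 145, 189.5 and 185 in CA30. Its saline values were 67.3, 145 and 109 at 30 min, 78.5, 82.9 and 119 at 60 min, then 56.6, 47.1 and 29.7 at 180 min. Its methylene blue values were 159, 142 and 71.8 at 30 min, 149, 185 and 164 at 60 min, then 72.3, 122 and 132 at 180 min. SAL180 lay below all arrays of every other group, and MB180 lay above all 3 SAL180 arrays.

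SAL180 minus CA0 was -2.09 ± 0.25 on Ssc.2250.1.A1_at and -0.05 ± 0.32, -0.49 ± 0.33, -0.46 ± 0.40 and -0.33 ± 0.30 on Ssc.17357.1.S1_at, Ssc.17357.2.A1_at, Ssc.2250.2.S1_at and Ssc.2250.3.S1_at. The 4 others spread most within SAL30, where replicate 1, the array least like the rest, read 405, 706, 183 and 419 on them. The other SAL30 arrays read 1407 and 1834, 2205 and 2910.0, 600.1 and 1048, and 1317 and 2063. By their names, Ssc.2250.1.A1_at shares a sequence cluster of the array design with Ssc.2250.2.S1_at and Ssc.2250.3.S1_at, so the low probe set and 2 of the others were designed from 1 cluster.

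Of the 3 PABPN1 probe sets, Ssc.21219.1.S1_at was low late. It read 801, 841 and 871 in CA0, 746, 744 and 779 in CA5, 892, 843 and 867 in CA20, and 852, 765 and 794 in CA30. In the saline groups it read 739, 766 and 566 at 30 min, 663, 592 and 650.0 at 60 min, then 466, 434 and 429.6 at 180 min, and in the methylene blue groups 746, 963 and 766, then 664, 660.0 and 842, then 528, 491 and 492. The 6 arrays at 180 min were the lowest of all 30, and those of SAL180 lay below those of MB180. With each array centred on its median, MB180 minus SAL180 was 0.03 on this probe set.

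In MB30 the low PABPN1 probe set overlapped all 4 groups without reperfusion, whereas that of DYNC1I2 overlapped CA20 alone. With saline, the low probe sets of both genes overlapped some of these arrays in SAL30 and lay below all of them in SAL60. A difference in timing between the genes was not tested. SAL180 minus CA0 was -0.90 ± 0.12 on Ssc.21219.1.S1_at, -0.18 ± 0.13 on Ssc.14199.1.A1_at and -0.21 ± 0.13 on Ssc.22337.1.S1_at. Ssc.14199.1.A1_at read 1869, 1940.0 and 1841 in CA0 and 1433, 1609 and 1983 in SAL180, and Ssc.22337.1.S1_at 621, 649 and 654 against 606, 582 and 480.3. Each of the latter probe sets had 1 SAL180 array far from the pair of others, the third replicate, whose 3' to 5' ratio was the highest of SAL180 at 2.60.

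TTC14 has a single probe set, Ssc.31113.1.S1_at, so no disagreement can be seen. It read 1399, 1607 and 1686 in CA0, 1391, 1390.0 and 1619 in CA5, 1304, 1439 and 1404 in CA20, and 1503, 1600.0 and 1503 in CA30. With saline it read 1150.0, 1420.0 and 1374 at 30 min, 1349, 1219 and 1243 at 60 min, then 1128, 943 and 911 at 180 min. With methylene blue it read 1060.0, 1095 and 1033 at 30 min, 1060.0, 788 and 905 at 60 min, then 1061, 855 and 846 at 180 min. The MB30 arrays, 1033 to 1095, thus already lay inside the SAL180 range of 911 to 1128, while SAL30 overlapped CA0, CA5 and CA20 but lay below all of CA30. SAL180 minus CA0 was -0.65 ± 0.12, and MB180 minus MB30 was -0.21 ± 0.12.

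ZFAND5 and CKS2 did not follow a plain late decline. Both were high early after reperfusion relative to untreated arrest and lower again at 180 min. CKS2 was then back in the range of untreated arrest, whereas the ZFAND5 probe set Ssc.27892.2.S1_at had its lowest group mean in SAL180. The latter read 59.3, 51.0 and 11.9 in CA0, 61.8, 62.4 and 87.1 in CA5, 59.5, 5.56 and 49.1 in CA20, and 66.5, 42.3 and 36.6 in CA30. It read 147, 130.1 and 127 in SAL30, 70.8, 86.1 and 97.7 in SAL60, and 32.4, 8.36 and 5.93 in SAL180. In MB30 it read 93.6, 156 and 118, in MB60 93.7, 178 and 130.3, and in MB180 39.9, 47.5 and 24.3.

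The SAL180 mean of Ssc.27892.2.S1_at, 15.6 ± 14.6 (SD, n = 3), was the lowest of the 10 groups, beside 40.8 ± 25.3 in CA0 and 37.2 ± 11.8 in MB180. The SAL180 and CA0 arrays overlapped, and 5.93 and 8.36 lie so near the bottom of the scale that the added 16 governs their log2 value. SAL180 minus SAL30 was -2.35 ± 0.39, and -3.39 with 1 added or -1.33 with 64 added in place of 16. SAL180 minus CA0 was -0.82 ± 0.39, and -1.41 and -0.38 with those amounts, -0.41 with array weights and -1.26 without CA0 replicate 3. The dim probe set Ssc.27892.1.A1_at ran from 17.7 to 23.6 in CA0, from 35.4 to 63.0 in MB30, from 41.5 to 59.5 in MB60 and from 17.8 to 31.5 in SAL180. It passed the filter on low values, at about 29.5, only through the methylene blue arrays. Its mean was 46.5 on those 9 arrays and 25.3 on the other 21. The bright probe set Ssc.8536.1.A1_at stayed between 4890.0 and 7613 on all arrays, with SAL180 minus CA0 at 0.05 ± 0.11. Ssc.27892.1.A1_at and Ssc.27892.2.S1_at come from 1 cluster by their names and Ssc.8536.1.A1_at from another.

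CKS2 has the single probe set Ssc.12229.1.S1_at, which read 69.8, 153 and 105 in CA0, 59.9, 96.8 and 75.5 in CA5, 71.8, 80.5 and 95.2 in CA20, and 66.6, 89.6 and 83.8 in CA30. It read 302, 189 and 219.8 in SAL30, 187, 137 and 196 in SAL60, and 78.2, 99.5 and 58.1 in SAL180. In MB30 it read 138, 142 and 90.6, in MB60 133, 144 and 105, and in MB180 75.8, 77.2 and 88.1. All SAL30 arrays lay above all arrays of the other groups except SAL60 replicate 3, and SAL180 spanned the range of untreated arrest.

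SAL180 minus SAL30 was -1.42 ± 0.23 for CKS2, and MB180 minus MB30 was -0.52 ± 0.23. The highest CKS2 value, 302, came from SAL30 replicate 1, the array least like the others, on which the summed intensity of 4 microglia markers was 4287, against 2159 and 1541 on the other SAL30 arrays and 1591 to 2318 in CA0. Without that array SAL180 minus SAL30 was -1.24. Whether microglia RNA took part in the CKS2 values was not tested.

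**Figure D1:**
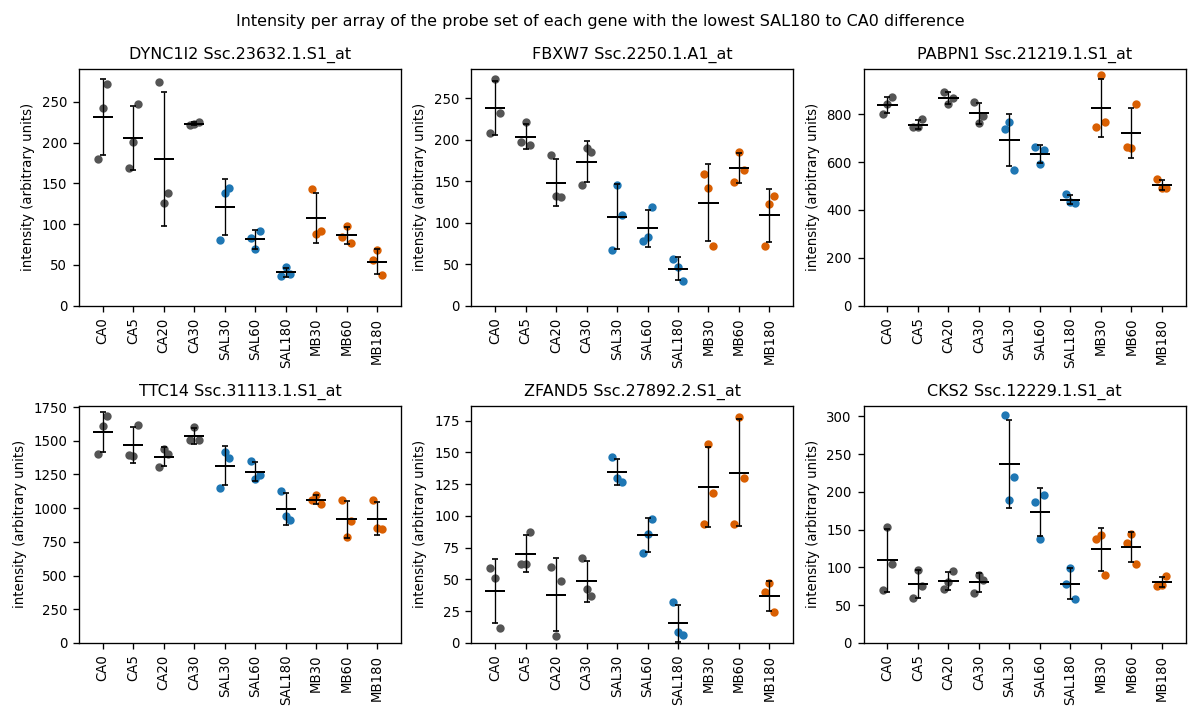
Intensity in arbitrary units (linear axis from 0) on every array, by group, for the probe set of each gene with the lowest SAL180 minus CA0 difference; points are arrays (grey CA, blue saline, orange methylene blue), horizontal bars group means and vertical bars SD of 3 arrays. DYNC1I2 steps down from 30 min on and reaches 36.3 to 47.2 in SAL180, whereas ZFAND5 and CKS2 stand higher at 30 min than at 180 min, with ZFAND5 at its lowest group mean in SAL180.

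The first test asked whether the 11 probe sets of the 4 genes chosen on SAL180 against CA0 also moved in arrays that contrast did not use. Early reperfusion, the 12 arrays of SAL30, SAL60, MB30 and MB60, was set against the 9 arrays of untreated arrest. DYNC1I2 fell on Ssc.23632.1.S1_at by 0.93 ± 0.13 (adjusted p = 4.99e-05), TTC14 fell by 0.37 ± 0.06 (adjusted p = 0.000664) and FBXW7 fell on Ssc.2250.1.A1_at by 0.50 ± 0.14 (adjusted p = 0.021). These were 3 of 11 lower, beside 3.67% of all tested probe sets lower and 6.35% higher in this comparison. PABPN1 Ssc.21219.1.S1_at did not pass (-0.18 ± 0.06, adjusted p = 0.0686). With each array centred on its median it did, at -0.27 (adjusted p = 0.00938). With the 3' to 5' ratio as a covariate it did not, at -0.18 (adjusted p = 0.18). The other 7 probe sets ran from -0.11 to 0.30 and did not pass. Without CA20 replicate 2 the same count was 3, with DYNC1I2 at -0.99, TTC14 at -0.36 and FBXW7 at -0.53.

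MB180 against untreated arrest gave calls for all 4 genes, each lower and each on the probe set that was low in SAL180. DYNC1I2 fell by 1.63 ± 0.20 on Ssc.23632.1.S1_at (adjusted p = 4.63e-06), from 203 ± 49.6 (SD, n = 9 arrays) to 54.0 ± 15.2 (n = 3). PABPN1 fell by 0.66 ± 0.10 on Ssc.21219.1.S1_at (adjusted p = 5.45e-05), from 809 ± 55.4 to 504 ± 21.5. TTC14 fell by 0.66 ± 0.10 (adjusted p = 7.36e-05), from 1462 ± 104 to 921 ± 122. FBXW7 fell by 0.63 ± 0.21 on Ssc.2250.1.A1_at (adjusted p = 0.0477), from 175 ± 31.4 to 109 ± 31.9. That made 4 of 11 lower, beside 4.67% of all tested probe sets lower and 6.91% higher.

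The FBXW7 call sits at the threshold and was lost without any 1 of the MB180 arrays, at -0.40 (adjusted p = 0.27) without replicate 1. Without CA20 replicate 2 it was -0.66 (adjusted p = 0.0498), and without CA20 replicates 1 or 3 it was lost (adjusted p = 0.0701 and 0.0543). It was lost in 22 alternatives in all. The remaining 7 probe sets of these genes did not pass, and their differences ran from -0.07 to 0.41. With the 3' to 5' ratio of each array as a covariate, the differences were -1.82 for DYNC1I2 (adjusted p = 1.02e-06), -0.67 for PABPN1 (adjusted p = 0.000257), -0.65 for TTC14 (adjusted p = 0.000414) and -0.78 for FBXW7 (adjusted p = 0.0297). In this comparison the median difference of endothelial markers was 0.56, of leukocyte markers, all below the filter, 0.32 and of neuron markers 0.13. It was 0.305 for meninges, 0.171 for red blood cells, 0.101 for smooth muscle and 0.062 for oligodendrocytes. For astrocytes, choroid plexus and microglia it was -0.004, -0.085 and -0.174. Whether cell content took part in the member values was not tested.

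Within untreated arrest only the longest duration was tested against the shortest. CA30 minus CA5 gave 0 of 15 calls with limma, beside 0.00595% of all probe sets. At an unadjusted p under 0.05 it also gave 0 of 15, beside 2.08% of all. The differences ran from -0.44 ± 0.39 on ZFAND5 Ssc.27892.2.S1_at to 0.33 ± 0.25 on Ssc.27892.1.A1_at, and DYNC1I2 Ssc.23632.1.S1_at stood at 0.13 ± 0.24. On the dim Ssc.27892.1.A1_at, CA5 replicate 2 read 4.28, beside 28.7 and 26.1 on the other CA5 arrays. With single arrays left out its difference ran from -0.04 to 0.53. CA20 was in no test of its own, and it stood apart on some probe sets. FBXW7 Ssc.2250.3.S1_at ran from 1191 to 1275 in CA20, below its 1495 to 1838 in CA5 and 1559 to 1680.0 in CA30. PABPN1 Ssc.22337.1.S1_at likewise ran from 516 to 582 in CA20, below 630.1 to 674 in CA5 and 749 to 776 in CA30, which do not overlap each other either.

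The disagreement between probe sets of 1 gene was measured within each array as the log2 value of the low probe set minus the mean of the gene's other probe sets. Its level has no meaning across probe sets, but its change between arrays does. Such a change holds both a fall of the low probe set and any rise of the others. In untreated arrest this gap was -3.0 ± 0.29 (SD, n = 9) for DYNC1I2, and it was -4.65 ± 0.31 in MB180 (n = 3), a change of -1.65. For FBXW7 it went from -2.82 ± 0.17 to -3.65 ± 0.35, a change of -0.83, and for PABPN1 from -0.42 ± 0.14 to -1.29 ± 0.13, a change of -0.87. In FBXW7 and PABPN1 the change was larger than the fall of the low probe set alone. In each of the 3 genes all MB180 arrays lay below all 9 untreated arrays (two-sided exact permutation test, p = 0.004545 for each, the smallest that 220 splits allow). Without CA20 replicate 2 the changes were -1.72, -0.83 and -0.86.

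Over the 30 and 60 min groups pooled, the gap was also wider. Early reperfusion differed from untreated arrest by -1.01 for DYNC1I2 (two-sided exact permutation test over 293930 splits, p = 1.701e-05), by -0.55 for FBXW7 (exact p = 0.004886) and by -0.26 for PABPN1 (exact p = 0.00216). The PABPN1 value was -0.20, and no longer passed, when only the nearest other probe set by level was used. The FBXW7 arrays were not alike: in SAL30 its gap was -2.27, -2.98 and -3.89, so that replicate 1 lay above and replicate 2 inside the untreated range of -3.14 to -2.60. Without CA20 replicate 2 the pooled differences were -1.08, -0.55 and -0.25. These were 6 tests, and their p-values are not adjusted for that number. The genes and tests were chosen with earlier results of these data known, which the p-values do not allow for. The gaps share their low probe sets and arrays with the limma tests above, so they are not independent of those. The gap of ZFAND5, a description only, differed from that of untreated arrest by 0.75 early and by -0.51 in MB180.

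**Figure D2:**
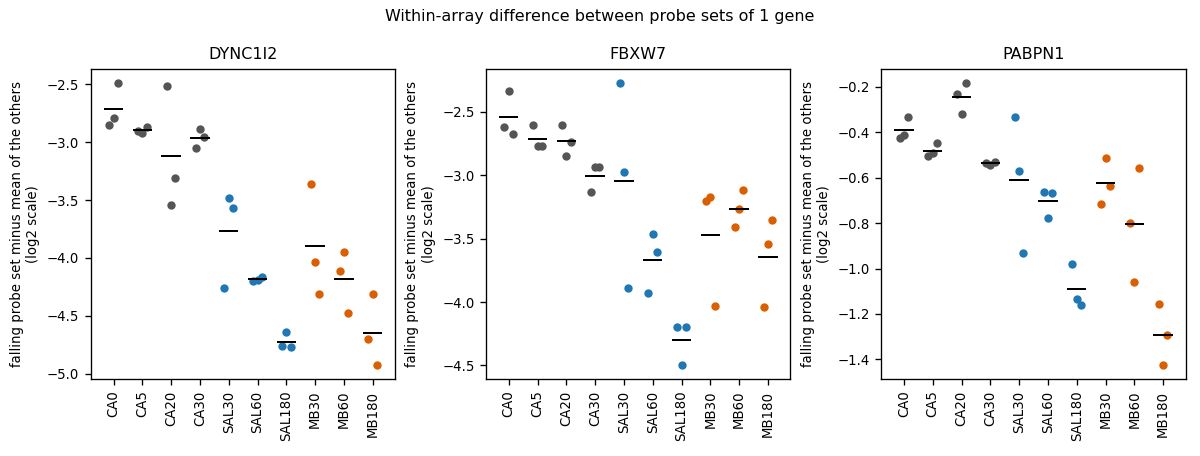
Difference on the log2(intensity + 16) scale between the low probe set and the mean of the gene's other probe sets, per array (points; grey CA, blue saline, orange methylene blue) with group means (bars), for DYNC1I2, FBXW7 and PABPN1. In DYNC1I2 the untreated arrest arrays lie between -3.54 and -2.51 and the MB180 arrays between -4.92 and -4.31; the axes differ between genes and do not start at 0.

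How unusual such a split is was read from the 1543 genes with several tested probe sets, using the spread, the highest minus the lowest log2 difference among the probe sets of a gene. In SAL180 minus CA0, which chose 3 of these genes, the spread was 2.01 for DYNC1I2, 2.04 for FBXW7, 0.72 for PABPN1 and 0.97 for ZFAND5, where the median gene had 0.22. Spreads at least that wide were found in 0.194%, 0.13%, 5.44% and 2.01% of the genes, and nothing is read from those shares because the contrast chose the members. In MB180 minus untreated arrest the spread was 1.65 for DYNC1I2, reached by 0.194% of genes, 1.04 for FBXW7 (4.15%) and 0.95 for PABPN1 (6.55%), with a median gene at 0.39. In early reperfusion it was 1.01 for DYNC1I2 (1.49%), 0.80 for FBXW7 (4.8%) and 0.32 for PABPN1 (47.1%), so PABPN1 was then near the middle of all genes. A spread widens with the number of probe sets, and FBXW7 has the most, 5.

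**Figure D3:**
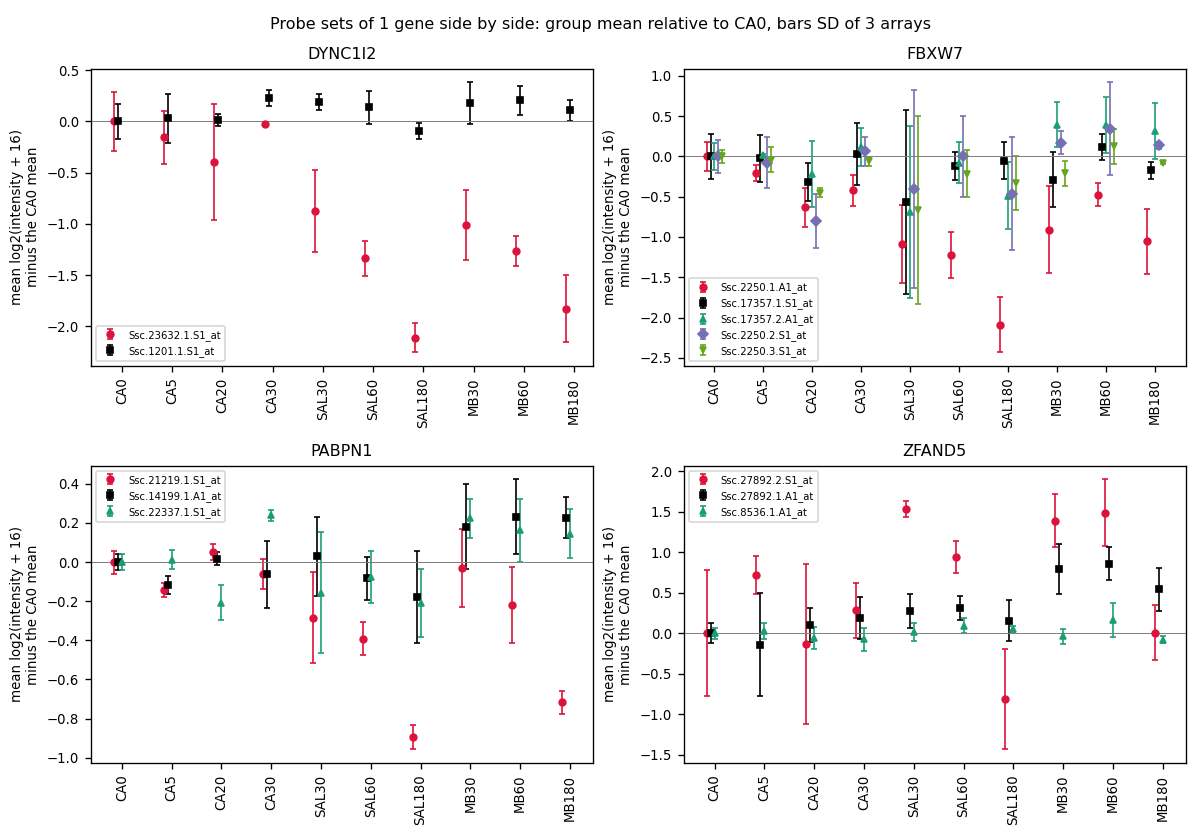
Group mean of log2(intensity + 16) minus the CA0 mean for each probe set of the 4 genes with several, by group; bars are SD of 3 arrays, and red marks the probe set with the lowest SAL180 value relative to CA0. The red points of DYNC1I2 and FBXW7 reach -2.11 and -2.09 in SAL180, where their other probe sets lie between -0.49 and -0.05.

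Across the 30 arrays the low DYNC1I2 probe set correlated with the second DYNC1I2 probe set at Pearson r = 0.137. For FBXW7 the low probe set had r of 0.297 to 0.442 with the 4 others, which had 0.497 to 0.871 among themselves. The PABPN1 pairs lay between 0.127 and 0.191 and the ZFAND5 pairs between 0.056 and 0.297, beside a median of 0.176 over all 2836 same-gene pairs on the array. The 30 arrays share groups, scaling and RNA quality, so these are descriptions.

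The named probe sets of other genes with the most similar profile were sought by Pearson r over the 30 arrays. For DYNC1I2 they were TTC14 (0.795), FBXW7 (0.791) and PABPN1 (0.764), all members, and for FBXW7 they were DYNC1I2 (0.791), PABPN1 (0.702) and LMO4 (0.689). The members were chosen on a shared contrast, so their likeness to each other is partly given. PABPN1 was most like SLCO2B1 (0.825), DYNC1I2 (0.764) and RIC8B (0.716), and TTC14 most like CCDC84 (0.825), MSS51 (0.821) and NSD1 (0.82). The closest to ZFAND5 were NR3C1 (0.737), KLF4 (0.706) and SGTA (0.705), and to CKS2 LAPTM5 (0.775), COPG2 (0.735) and LOC100622859 (0.727). LAPTM5 is a lysosomal membrane protein of leukocytes and microglia.

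The next question was whether the members differed between methylene blue and saline at matched times. At 30 min 0 of the 11 probe sets passed (4.09% of all tested did with limma), and 4 had an unadjusted p under 0.05, where 21.3% of all tested did. At 60 min 1 of 11 passed (1.52% of all), TTC14, which was lower with methylene blue by -0.47 ± 0.12 (adjusted p = 0.0434), a call lost in 19 alternatives, with adjusted p up to 0.216. Over both times together, a comparison added after seeing the data, 3 of 11 passed, beside 15.6% of all tested probe sets. TTC14 differed by -0.38 ± 0.08 (adjusted p = 0.00399), with 6 methylene blue arrays between 788 and 1095 and 6 saline arrays between 1150.0 and 1420.0, which do not overlap. That call held under every alternative run, with differences from -0.46 to -0.33 and adjusted p at most 0.0258, also with the 3' to 5' ratio as a covariate (adjusted p = 0.0173).

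The other calls went the opposite way, and single arrays ended them. FBXW7 Ssc.17357.2.A1_at was higher with methylene blue by 0.77 ± 0.23 (adjusted p = 0.0246) and PABPN1 Ssc.22337.1.S1_at by 0.31 ± 0.09 (adjusted p = 0.0227). Without SAL30 replicate 1 these became 0.47 (adjusted p = 0.0688) and 0.23 (adjusted p = 0.0759). With the 3' to 5' ratio as a covariate they were 0.56 (adjusted p = 0.143) and 0.22 (adjusted p = 0.138). The low DYNC1I2 probe set differed between the infusions by -0.03 ± 0.17, and no probe set of the 11 showed a call for a change of the difference from 30 to 60 min (adjusted p = 0.999 throughout).

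Each infusion was also set against untreated arrest, a split of early reperfusion made after seeing the data. With early saline 2 of 11 probe sets were lower, beside 0.0833% of all: DYNC1I2 by -0.91 ± 0.16 (adjusted p = 0.0015) and FBXW7 Ssc.2250.1.A1_at by -0.73 ± 0.16 (adjusted p = 0.0261). The FBXW7 call was lost without SAL30 replicate 1, at -0.61 (adjusted p = 0.149), and without 6 other single arrays. With early methylene blue 2 of 11 were lower, beside 11.5% of all: DYNC1I2 by -0.94 ± 0.16 (adjusted p = 0.000144) and TTC14 by -0.56 ± 0.08 (adjusted p = 1.55e-05). The low FBXW7 probe set stood at -0.27 ± 0.16 there, and its difference between the infusions, 0.46 ± 0.18, did not pass (adjusted p = 0.0788).

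On the higher side of early methylene blue against untreated arrest, 1 of 11 was called, beside 14.3% of all tested probe sets. This was PABPN1 Ssc.14199.1.A1_at (0.26 ± 0.08, adjusted p = 0.0242), and the call was lost when each array was centred on its median (0.14, adjusted p = 0.273) and without any of 4 single arrays, at 0.20 (adjusted p = 0.0969) without MB30 replicate 2.

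ZFAND5 and CKS2 were high early in both infusions relative to untreated arrest. Since their early level may have taken part in choosing them, all their comparisons with untreated arrest and between the infusions are descriptions. Early methylene blue minus untreated arrest was 1.15 ± 0.25 for ZFAND5 Ssc.27892.2.S1_at, 0.77 ± 0.16 for Ssc.27892.1.A1_at and 0.55 ± 0.15 for CKS2. Because Ssc.27892.1.A1_at passed the filter only through its methylene blue values, its difference there was partly given. ZFAND5 Ssc.27892.2.S1_at ran from 93.6 to 178 on the 6 early methylene blue arrays and from 5.56 to 87.1 on the 9 untreated ones, which do not overlap. CKS2 ran from 90.6 to 144 against 59.9 to 96.8, which do. Against CA0, at 69.8 to 153, CKS2 was not set apart, as all 6 early methylene blue arrays lay inside that range. Early saline minus untreated arrest was 0.95 ± 0.25 for ZFAND5 Ssc.27892.2.S1_at and 1.18 ± 0.15 for CKS2. CKS2 averaged 205 ± 54.5 (SD, n = 6 arrays) with early saline, 125 ± 22.3 with early methylene blue and 80.0 ± 12.7 in untreated arrest (n = 9). MB30 minus SAL30 was -0.85 ± 0.23 and MB60 minus SAL60 -0.40 ± 0.23 for CKS2, and all MB30 values lay below all SAL30 values. At 180 min the FBXW7 probe set Ssc.2250.1.A1_at was higher with methylene blue by 1.04 ± 0.25, and the PABPN1, DYNC1I2 and TTC14 differences were 0.18 ± 0.12, 0.28 ± 0.24 and -0.11 ± 0.12. With each array centred on its median these differences were, in the same order, 0.89, 0.03, 0.14 and -0.26. With the 3' to 5' ratio as a covariate they were 0.80, 0.17, -0.02 and -0.10.

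**Figure D4:**
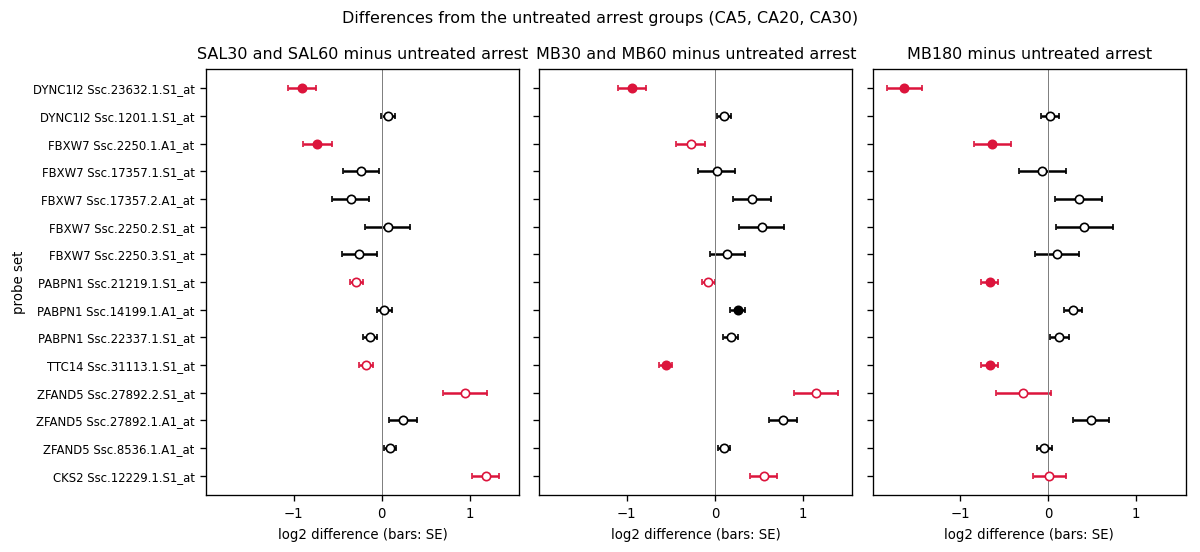
Log2 differences from untreated arrest (CA5, CA20, CA30) with their SE for all 15 probe sets, in early saline (SAL30, SAL60), early methylene blue (MB30, MB60) and MB180; red is the probe set of each gene that was lowest in SAL180, filled points passed an adjusted p of 0.05 and ZFAND5 and CKS2, which are descriptions, are left unfilled. DYNC1I2 lies at -0.91, -0.94 and -1.63, and TTC14 at -0.18, -0.56 and -0.66.

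The pathways around the members were described with 6 gene lists, 1 probe set per gene, that with the highest mean, in MB180 against untreated arrest, where the median of all probe sets was 0.03. Of all tested probe sets 6.91% were higher and 4.67% lower there, and nothing particular to a list is read from counts this small. Among dynein and dynactin genes 1 of 20 rose and 1 fell, with a median of -0.03: DYNLL2, a dynein light chain, rose by 0.80 ± 0.15 and DCTN4, a dynactin subunit, fell by 0.32 ± 0.08. Of the SCF ligase subunits and FBXW7 substrates 4 of 19 rose and 1 fell, with a median of 0.07. Those that rose were the substrates MYC (0.79 ± 0.14), JUN (1.02 ± 0.24) and MCL1 (0.45 ± 0.11) and the signalosome subunit COPS5 (0.46 ± 0.12), and FBXL5, an F-box protein of iron sensing, fell by 0.34 ± 0.11. In this list FBXW7 itself is counted by its brightest probe set, which did not pass. The same rule takes the brightest probe set of DYNC1I2, PABPN1 and ZFAND5, which is not the low one in any of them.

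Among polyadenylation and poly(A)-binding genes 3 of 25 rose and 2 fell, with a median of 0.09. BTG2, which recruits deadenylases, rose by 1.60 ± 0.40, the deadenylase CNOT7 by 0.77 ± 0.18 and the cleavage factor CSTF2 by 0.47 ± 0.15. The deadenylase subunit PAN3 fell by 0.38 ± 0.09 and the cleavage factor CSTF1 fell by 0.35 ± 0.11. Of the A20-type and AN1-type zinc finger genes 1 of 8 rose, ZFAND2A (1.0 ± 0.18), which heat stress induces, and 1 fell, ZFAND6 (-0.27 ± 0.08), with a median of -0.14.

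Of the cyclins, CDKs and CKS genes 2 of 14 rose and 0 fell, with a median of 0.28. They were CDKN1A, an inhibitor of cyclin-dependent kinases (0.99 ± 0.18), and CDC25C, a phosphatase that activates them (1.13 ± 0.26). The SR proteins, CLK kinases and relatives of TTC14 had 1 of 21 higher and 4 lower, with a median of -0.23. Beside TTC14 itself, the kinase CLK2 fell by 0.55 ± 0.12, and the splicing factors RBM5 and SRRM1 fell by 0.42 ± 0.12 and 0.38 ± 0.11, while SRSF7 rose by 0.30 ± 0.10. In early reperfusion the 6 lists had, in the same order, 1, 3, 2, 1, 5 and 0 genes that rose and 0, 0, 0, 0, 0 and 2 that fell, beside 6.35% of all tested probe sets higher and 3.67% lower. The lists hold member genes, and TTC14 is 1 of the 2 that fell, so these counts are not separate from the choice of members.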

How the data were processed

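Total RNA of pig cerebral cortex was labelled by Affymetrix's one-cycle protocol, per the labels' protocols, and hybridised to an Affymetrix porcine array. The authors deposited linear intensity, made with GCOS per the submitters' processing notes. Its version is not given in the sources used here. The mean without the extreme 2% at either end was 300.05 to 300.06 on every array, so differences are relative to total signal. Gene symbols came from the platform's table. Genomic positions and probe sequences were not used here.

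From these, log2(intensity + 16) was computed, and 16799 probe sets above the 30th percentile of mean level (an intensity of about 29.5) were fitted with limma 3.58.1 in R 4.3.3, with 1 mean per group (20 residual degrees of freedom), moderation along an intensity trend, and two-sided p-values adjusted by Benjamini-Hochberg over all tested probe sets at 0.05. Within-gene gaps were compared by exact permutation tests (Python 3.11.15), with p-values left unadjusted in the text. Whether a gap passed under an alternative was judged at 0.05 after Benjamini-Hochberg adjustment over the genes with several probe sets. Precision is limited by 3 arrays per group. Scripts were tested on simulated data.

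The members, gene lists, markers and tests were chosen with earlier results of these data known. Named were all probe sets of the 6 genes, the 3 most similar genes to each and the list genes that passed in MB180. Alternatives were the pseudocount, filter, normalization, intensity trend, array weights, replicate block, 3'/5' ratio and arrays left out. The latter included, after seeing the data, a fit without the 5 arrays least like the rest and the split of early reperfusion by infusion.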

Additional observations from a re-analysis of the deposited data

Results flagged for a closer look

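Of the differences between methylene blue and saline groups of the same time, 3 were flagged, which is not a full count of groups without overlap. For example, FBXW7 Ssc.2250.1.A1_at ran from 149 to 185 in MB60 and from 78.5 to 119 in SAL60, a difference that did not pass and was not flagged. CKS2 was lower in MB30 than in SAL30 by -0.85 on the log2 scale, a description because SAL30 belongs to the late decline taken to have chosen CKS2. TTC14 was lower in MB60 than in SAL60 by -0.47, which passed at an adjusted p of 0.0434 in limma but not in 19 alternatives. FBXW7 probe set Ssc.2250.1.A1_at was higher in MB180 than in SAL180 by 1.04, a description because SAL180 chose it. Without the 5 arrays least like the rest this was 0.71.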

How the results depend on the processing

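Shared replicate numbers did not pair arrays: over 135 pairs of same-numbered arrays the median correlation of deviations from the group means was -0.0034 (range -0.376 to 0.365), and 28 exceeded 0.1. With the replicate block the counts of member probe sets called were 3 in early reperfusion, 4 in MB180 against untreated arrest, and 0 at both 30 and 60 min for methylene blue against saline. The within-gene changes passed when permuted within replicate numbers. The early reperfusion count of 3 was 3 to 4 and the MB180 count of 4 was 3 to 5 over all alternatives. At 30 min the count of 0 became 1 with quantile normalization and ranged from 0 to 3 with single arrays left out (3 without SAL30 replicate 3). At 60 min the count of 1 became 0 with no filter, quantile normalization, no intensity trend, the replicate block, the 3'/5' covariate, a fit to the compared groups alone or without the 5 arrays least like the rest, and ranged from 0 to 1 with single arrays left out. The median of the 4 low probe sets in SAL180 minus CA0, -1.49, was -1.16 with a pseudocount of 64. The PABPN1 within-gene change in early reperfusion was -0.20 with the nearest other probe set. Genes called in the dynein list went from 2 to 5 with the probe set of smallest p, and those in the A20-type and AN1-type list from 2 to 1 with quantile normalization. Centring arrays on the median moved MB180 minus untreated arrest by -0.14 and early methylene blue minus untreated arrest by -0.13 on every probe set. No called value changed sign; the cause of these changes was not tested.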
